A study of Mus musculus with 16 samples.

Results

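A pair of gene promoters of the mouse genome, on chromosomes 5 and 6, were compared for the genomic sites that lie near them in the nucleus of fibroblasts carrying the Rb1L allele on both copies of Rb1. The comparison holds 8 of the 16 libraries of the series: 4 Rb1L/L libraries from the promoter that Pole shares with Pxmp2 and 4 Rb1L/L libraries from the promoter that Cdca3 shares with Usp5. Each Pole library was set against the Cdca3 library of the same replicate number. The remaining 8 libraries are the same 2 promoters in Rb1+/+ cells and were used only where stated.

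Each promoter lies between 2 genes that are read in opposite directions. Pole encodes the catalytic subunit of DNA polymerase epsilon, which copies DNA in S phase, and Pxmp2 encodes a channel protein of the peroxisomal membrane. Cdca3 encodes a protein of the cell division cycle, and Usp5 encodes a deubiquitinating enzyme. The retinoblastoma protein, the product of Rb1, restrains cell division genes, and the L mutation removes its binding cleft for proteins with an LXCXE motif. Condensin II, the complex named in the title of the series, compacts and organises chromosomes. In 4C-seq, a circular form of chromosome conformation capture, the restriction fragments ligated to 1 chosen locus, the viewpoint, are sequenced. Most ligations of a locus come from its own chromosome (cis) and thin out with distance, and contacts with other chromosomes (trans) are rarer and more variable.

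All 8 libraries came from proliferating mouse embryonic fibroblasts (MEFs) of E13.5 embryos, used at passage 4, and the labels name no treatment. They were crosslinked in 1% formaldehyde and cut with HindIII and then NlaIII. Both libraries of a replicate number carry the same MEF pair identifier and the same genotype, so they were taken to come from 1 culture, and the 4 numbers stand for 4 cultures. All 8 libraries carry the mutant allele on both copies, so genotype does not differ between the promoters compared. The cell type was taken from the labels, because a list of sites holds no marker gene levels.

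The measurement was a list of restriction sites per library that the authors scored as positive, with mm9 coordinates. No read counts were used here, so depth is unknown and the length of the list is the only measure of yield. The Pole libraries listed 6485, 15664, 16989 and 14103 sites in replicates 1 to 4, and the Cdca3 libraries listed 15802, 39650, 37263 and 28421. Cdca3 had the longer list in 4 of 4 cultures (Pole minus Cdca3 averaged -16974 sites), although its replicate 1 lay among the Pole libraries (exact paired permutation test, two-sided, p = 0.125). That p is the smallest that the 16 sign patterns of 4 pairs can give, so no paired test of a single value can pass 0.05 here. A test that ignores the pairing can reach 0.0286 over its 70 splits, and both values are given below where they differ in their call. Replicate 1 had the shortest list at both promoters and stood apart in its trans sites as well, as described below, and the results below whose call it decides are given both ways.

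Pole had a larger part of its sites on its own chromosome than Cdca3 in every culture. A site counted as cis when it lay on chromosome 5 for Pole or chromosome 6 for Cdca3. In replicates 1 to 4, cis sites made up 59.7%, 49.6%, 47.6% and 54.1% of the Pole lists. They made up 33.3%, 24.3%, 25.2% and 29.2% of the Cdca3 lists. In numbers, Cdca3 listed more cis sites in every culture, 5265, 9622, 9401 and 8305 against 3869, 7771, 8090 and 7634 at Pole. Its trans sites exceeded those of Pole by more, at 10537, 30028, 27862 and 20116 against 2616, 7893, 8899 and 6469. In cis share, every Pole library lay above every Cdca3 library. The means were 52.8% ± 5.35 and 28.0% ± 4.14 (SD, n = 4), and the difference within a culture was 26.3, 25.3, 22.4 and 24.9 percentage points, with a mean of 24.7 ± 1.68 (SD). The exact paired permutation test gave p = 0.125, its smallest value, and the exact unpaired test gave p = 0.0286, also its smallest. At both promoters replicate 1, with the shortest list, had the highest cis share, and without it the difference was 24.2 percentage points. Libraries of nearly equal length, though of different cultures, can be set side by side. Pole replicate 2, with 15664 sites, had 49.6% in cis and Cdca3 replicate 1, with 15802 sites, had 33.3%. The part of list length in the cis share was not tested. Among sites with a deposited value under 0.01 the difference was larger, at 32.4 percentage points.

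**Figure D1:**
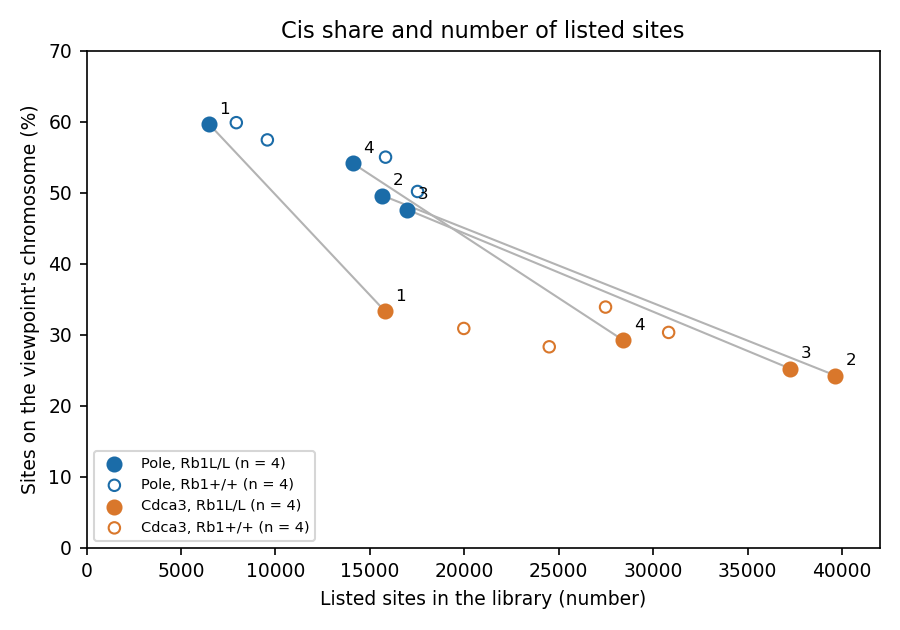
Percent of each library's listed sites on the viewpoint's own chromosome (vertical axis) against its number of listed sites (horizontal axis), with filled points for Rb1L/L, open points for Rb1+/+, the replicate number beside each filled point and a grey line joining the Rb1L/L libraries of a number. The 4 Pole Rb1L/L libraries sit between 47.6% and 59.7%, all above the 4 Cdca3 Rb1L/L libraries at 24.3% to 33.3%.

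The fall of cis sites with distance was then compared. No listed site lay near either promoter, so distance was measured from the middle of the stretch without sites taken to hold it, chromosome 5 from 109110988 to 111716060 for Pole and chromosome 6 from 122734336 to 125781765 for Cdca3 (mm9). The stretches were chosen by the approximate position of the promoters, from general knowledge, and placing the viewpoint at either end of its stretch served as an alternative. The slope of log10 site density on log10 distance between 3 and 96 Mb was -0.425, -0.143, -0.132 and -0.280 in Pole replicates 1 to 4. It was -0.443, -0.233, -0.270 and -0.309 in the Cdca3 replicates. The groups overlapped, and the slope was steeper at Cdca3 in 4 of 4 cultures by only 0.0687 on average (exact paired p = 0.125, exact unpaired p = 0.457). The sign turned with the viewpoint at the end of its stretch (-0.233) and over 6 to 48 Mb alone (-0.0291), so the data fix no order of the slopes.

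The share of cis sites within 10 Mb did not separate the promoters either. It was 25.9%, 19.2%, 17.9% and 22.2% at Pole and 23.2%, 17%, 18.1% and 18.4% at Cdca3, higher at Pole in 3 of 4 cultures by 2.15 percentage points on average (exact paired permutation p = 0.25). Within 5 Mb the difference was -2.66, and with the viewpoint at the start or the end of its stretch it was -0.782 or -2.03. Wider or one-sided ranges gave larger differences with Pole higher, 6.65 percentage points within 20 Mb (41.4% against 34.7%) and 7.92 within 10 Mb on the centromeric side alone (19.9% against 12%), each with an exact paired permutation p of 0.125.

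2 distance ranges separated the promoters with the viewpoint at the start, the middle and the end of its stretch. Between 48 and 96 Mb, which exists only on the centromeric side of both promoters, Pole had fewer of its cis sites. The density there was 0.234%, 0.374%, 0.389% and 0.336% of cis sites per Mb in Pole replicates 1 to 4, against 0.539%, 0.648%, 0.641% and 0.584% at Cdca3. The groups did not overlap, and the mean difference was -0.269 (-0.263 and -0.236 at the start and the end of the stretch). As a percent of the sites on the centromeric side alone, the means were 0.505 ± 0.0818 and 0.817 ± 0.0436 (SD, n = 4), again without overlap. On the centromeric side between 12 and 24 Mb the order was the other way round, with Pole denser. The density was 2.02%, 1.91%, 1.80% and 1.74% of centromeric cis sites per Mb at Pole and 0.741%, 0.462%, 0.564% and 0.522% at Cdca3. The mean difference was 1.29, and 0.533 and 1.15 at the start and the end of the stretch. The ranges had no overlap between groups, and each had an exact unpaired p of 0.0286, or 0.0477 after Benjamini-Hochberg adjustment over the 5 distance ranges, and an exact paired p of 0.125. The gap between 3 and 6 Mb, 0.758% ± 0.160 at Pole against 1.78% ± 0.187 at Cdca3 (SD, n = 4), turned over with the viewpoint at the end of its stretch (1.21% against 0.921%).

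**Figure D2:**
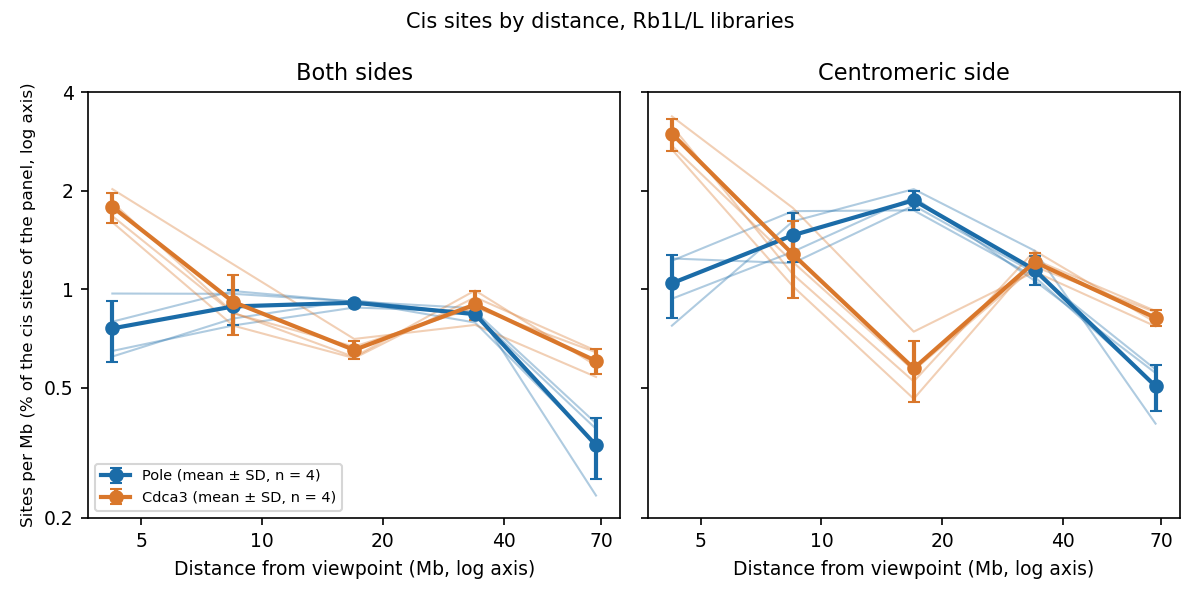
Cis site density (percent of the library's cis sites of the panel per Mb, log axis) against distance from the viewpoint (Mb, log axis) in 5 ranges, for both sides and for the centromeric side, with a thin line per Rb1L/L library and a thick line with bars for the mean ± SD of 4. From 48 to 96 Mb, both sides, the Pole libraries lie at 0.234 to 0.389, all below the Cdca3 libraries at 0.539 to 0.648.

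Single 1-Mb windows showed where the cis sites lay. At both promoters the window densest by the mean of 4 libraries lay beside the stretch without sites. For Pole it was chromosome 5 from 108 to 109 Mb, with 5.27%, 3.35%, 2.99% and 3.22% of cis sites in replicates 1 to 4, and for Cdca3 it was chromosome 6 from 126 to 127 Mb, with 5.05%, 3.11%, 3.23% and 3.58%. Replicate 1 was the highest in both, and at Pole it decided the order. The neighbouring Pole window from 107 to 108 Mb had 0.129%, 3.56%, 3.51% and 3.94%, which is above 108 to 109 Mb in replicates 2 to 4. Pole also had a pair of adjoining dense windows far towards the centromere, at 91 to 92 Mb (2.92% ± 0.0906) and 92 to 93 Mb (2.95% ± 0.188, SD, n = 4), which lie within the denser 12 to 24 Mb range. Cdca3 had dense windows on both sides, at 120 to 121 Mb (3.20% ± 0.822), 99 to 100 Mb (3.08% ± 0.340) and 145 to 146 Mb (3.01% ± 0.504). The 10 densest windows held 27.1% of the cis sites at Pole and 29.6% at Cdca3. 70 cis windows had a site in all 4 Pole libraries, of 104 with a site in any, and the count for Cdca3 was 70 of 103.

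Trans sites were counted on the 17 autosomes other than chromosomes 5 and 6, in 2001 windows of 1 Mb. The Pole libraries had 2403, 6897, 7866 and 5736 sites there and the Cdca3 libraries 9168, 26860, 24978 and 18112. Of the trans sites left out of these windows, those on the other promoter's chromosome made up 4.43% to 7.88% of all trans sites at Pole and 6.32% to 8.32% at Cdca3.

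Trans sites of Pole were spread over fewer windows. In replicates 1 to 4, 8.75%, 20.1%, 25.6% and 22.1% of the windows had a Pole site, against 21.6%, 35.2%, 37.4% and 35.0% with a Cdca3 site. Cdca3 was the higher in 4 of 4 cultures (Pole minus Cdca3 averaged -13.1 percentage points), although Cdca3 replicate 1 lay below Pole replicates 3 and 4 (exact paired p = 0.125, exact unpaired p = 0.0857). The longer Cdca3 lists move with this result. Thinned to the 2403 sites of the smallest library, an alternative chosen after seeing the data, the shares were 8.75%, 18.0%, 22.9% and 20.2% at Pole and 18.8%, 29.8%, 31.4% and 30.4% at Cdca3, still higher at Cdca3 in 4 of 4 cultures, with a mean difference of -10.1 percentage points. The part of list length in the remainder was not tested. A window with any site held 12.9 to 17.2 sites on average in the Pole libraries and 21.2 to 38.2 in the Cdca3 libraries.

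57 windows had a site in all 4 Pole libraries and 323 in all 4 Cdca3 libraries, and 41 windows were in both sets, which is 71.9% of the Pole set and 12.7% of the Cdca3 set. Of the 2001 windows, none was listed in all 4 Pole libraries and no Cdca3 library, whereas 18 were listed in all 4 Cdca3 libraries and no Pole library. The Cdca3 lists covered more windows at large, and the part of that coverage in these counts was not tested. Within the 41 windows listed in all 8 libraries the mean share was higher at Pole in 34, with a median of 34.2 per 10000 sites at Pole and 24 at Cdca3. In numbers of sites the medians were 18.8 and 44.0. The Pole share of such a window is taken over a shorter list spread over fewer windows.

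Trans sites lay towards the telomeric end of their chromosomes at both promoters, and slightly more so at Pole. Mouse chromosomes carry the centromere at one end, which is the start of the coordinates. With the first listed site of a chromosome at 0 and the last at 1, the median position of trans sites was 0.675, 0.7, 0.699 and 0.710 in Pole replicates 1 to 4 and 0.658, 0.645, 0.671 and 0.672 in the Cdca3 replicates. The groups did not overlap, and the mean difference was 0.0346 ± 0.0159 (SD, n = 4; exact paired p = 0.125, exact unpaired p = 0.0286).

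Site shares of the chromosomes were then compared with limma, replicate pair as a block, on the log2 scale. 1 of 17 chromosomes (5.88%) passed an adjusted p of 0.05, and the groups did not overlap on 2 (11.8%). Chromosome 7 held 12.65%, 12.32%, 10.2% and 10.62% of the sites in Pole replicates 1 to 4 and 9.57%, 7.68%, 7.35% and 7.56% in the Cdca3 replicates. It was higher at Pole in 4 of 4 cultures, with means of 11.45% ± 1.22 and 8.04% ± 1.03 (SD, n = 4; log2 difference 0.51 ± 0.09 SE, limma adjusted p = 0.0457). The call rested on the whole set: leaving out a replicate gave adjusted p values of 0.0532 to 0.321, and the fit without the pair block gave 0.0838, with log2 differences of 0.46 to 0.55. Among sites with a deposited value under 0.01 the difference was larger, 16.77% against 8.98% (log2 difference 0.86), and the call was lost too (limma adjusted p = 0.0774). Chromosome 15 went the other way in 4 of 4 cultures, at 3.41%, 3.19%, 3.92% and 3.87% for Pole against 5.46%, 4.6%, 4.22% and 4.75% for Cdca3, without passing (log2 difference -0.40 ± 0.13 SE, limma adjusted p = 0.216). The next nearest were chromosome 3 (7.14% ± 0.63 against 6.16% ± 0.59) and chromosome 1 (6.48% ± 0.90 against 7.96% ± 0.63), both with a limma adjusted p of 0.3.

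**Figure D3:**
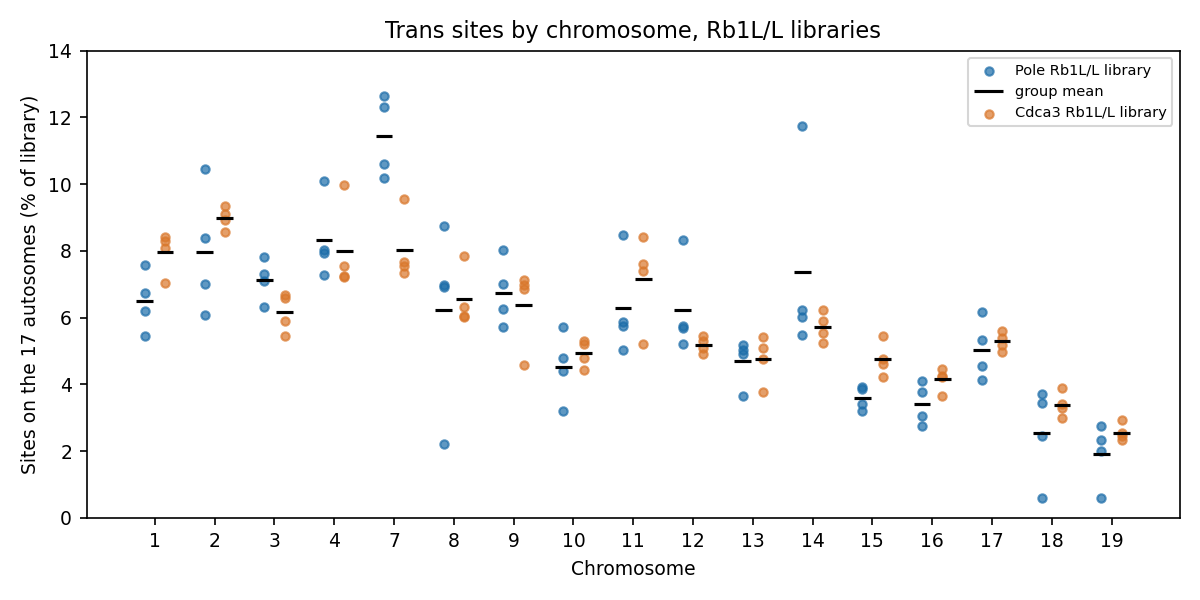
Percent of a library's sites on each of the 17 autosomes (vertical axis), with a point per Rb1L/L library and a bar for the mean of 4, by promoter. Chromosome 7 holds 10.2% to 12.65% of the sites at Pole, above the 7.35% to 9.57% at Cdca3, and chromosome 15 shows the opposite order.

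No single 1-Mb window separated the promoters across all 4 cultures after adjustment. The test was limma with the replicate pair as a block. It used log2 of the sites per 10000 of a library's sites on the 17 autosomes plus 1. The added 1 gave an empty window the same value in a short list as in a long one, so differences of sparse windows depend on it. The prior degrees of freedom of the test were infinite with all 4 replicates and without replicate 1. Each standard error was therefore that of windows of like mean, and a window's own scatter did not enter its p. The test called 0 of 884 windows (0%), with a smallest adjusted p of 0.164. At an unadjusted p under 0.05 there were 104 (11.8%), of which 9 (1.02%) were higher at Pole and 95 (10.7%) higher at Cdca3. That split depended on how empty windows were scaled. The median log2 difference over all 884 windows was -0.92, and with 0.5 sites added to every window it was -0.34 and the split was 77 higher at Pole to 42 higher at Cdca3. The groups did not overlap in 8 windows (0.905%) higher at Pole and 38 (4.30%) higher at Cdca3. With voom precision weights the count was 12 (1.36%), 2 higher at Pole and 10 higher at Cdca3. Over only the 41 windows with a site in every library it was 1 (2.44%), higher at Pole.

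The 5 windows of smallest p with more Cdca3 sites, none of which passed, had no site in any Pole library and a site in every Cdca3 library. In Cdca3 replicates 1 to 4 the share was 55.6, 26.4, 20 and 17.7 per 10000 on chromosome 19 from 37 to 38 Mb, from 51, 71, 50 and 32 sites (unadjusted p = 0.000309 and adjusted p = 0.164 by limma). It was 39.3, 23.1, 22.8 and 12.2 on chromosome 14 from 79 to 80 Mb. On chromosome 10 adjoining windows stood out, with 50.2, 17.1, 13.6 and 14.4 per 10000 from 60 to 61 Mb and 9.82, 15.6, 18.8 and 17.1 from 59 to 60 Mb. Chromosome 11 from 59 to 60 Mb had 36.0, 14.2, 12.8 and 14.9. Replicate 1 was the highest of the Cdca3 libraries in all of these except chromosome 10 from 59 to 60 Mb, where it was the lowest. No fold is given against the empty Pole libraries, and each of the 5 had a limma adjusted p of 0.164 with all replicates. Each passed without replicate 1, at a limma adjusted p of 0.0126, and with voom weights, at 0.00684 to 0.0364. All 5 met the filter, a mean of at least 1 site per 10000, through Cdca3 alone, so these passes add no support of their own. Leaving out replicate 2, 3 or 4 gave 0.201 to 0.428.

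Windows of small p with more Pole sites were less even. In the window of chromosome 14 from 99 to 100 Mb, Pole replicates 1 to 4 had 83.2, 42.0, 20.3 and 41.8 sites per 10000 and the Cdca3 replicates had 0, 24.6, 0 and 0.550. Cdca3 replicate 2 alone lay within the Pole range (log2 difference 4.09 ± 1.36 SE, limma adjusted p = 0.184). In the window of chromosome 4 from 108 to 109 Mb, Pole had 129, 68.2, 44.5 and 41.8 against 0, 26.4, 26.4 and 23.7 at Cdca3. The groups did not overlap there, but the log2 difference of 2.47 ± 0.91 (SE, limma adjusted p = 0.234) became 0.95 without replicate 1, in which Cdca3 had no site. There the window passed, with the smallest adjusted p of that fit (limma, 0.000154), and with voom weights the adjusted p was 0.372. Chromosome 2 from 127 to 128 Mb had a like pattern, with 117, 39.1, 39.4 and 29.6 at Pole and 0, 10.8, 23.2 and 20.4 at Cdca3 (limma adjusted p = 0.325). Chromosome 8 from 12 to 13 Mb had 74.9, 20.3, 34.3 and 17.4 at Pole and 12, 0, 11.2 and 0 at Cdca3, with no overlap and the same adjusted p. Chromosome 13 from 90 to 91 Mb was listed only in Pole replicates 2 and 3, at 69.6 and 48.3 per 10000, and in no Cdca3 library (log2 difference 2.94, limma adjusted p = 0.261). It passed without replicate 1 (3.92, limma adjusted p = 0.0126) and with voom weights (adjusted p = 0.0364), although Pole replicate 4 had no site there. Without replicate 2 the difference was 1.87 (limma adjusted p = 0.701). This window met the filter through Pole alone. The window of chromosome 14 from 99 to 100 Mb passed with voom weights (adjusted p = 0.0364) and not without replicate 1 (limma adjusted p = 0.4).

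**Figure D4:**
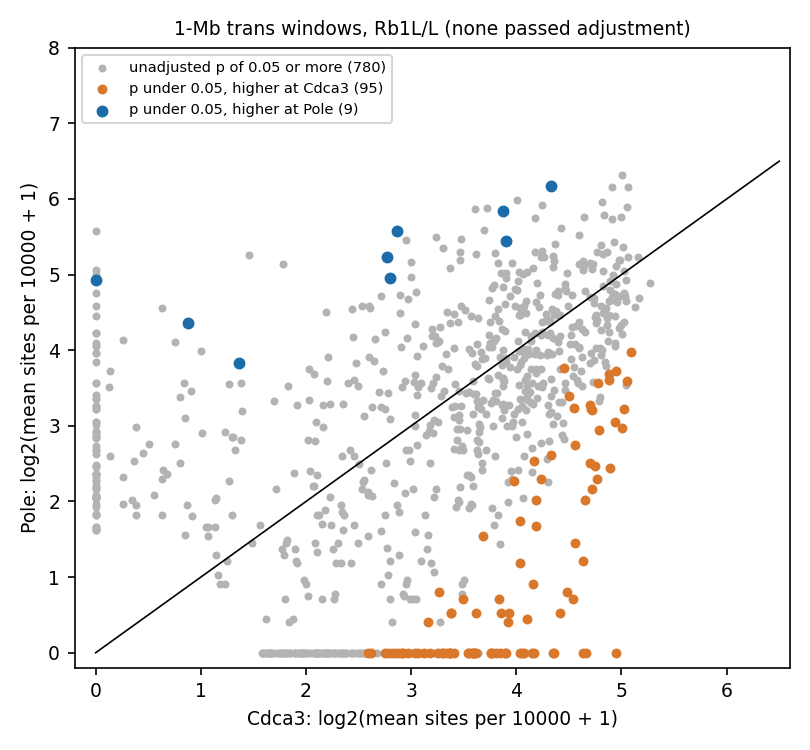
Mean of 4 Rb1L/L libraries in each of the 884 windows of 1 Mb, as log2 of sites per 10000 plus 1, at Pole (vertical axis) against Cdca3 (horizontal axis), with windows at an unadjusted p under 0.05 coloured by direction and a line of equal values. The 95 windows higher at Cdca3 lie low on the vertical axis, many at 0, and the 9 higher at Pole lie above the line.

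Over all 4 replicates, no window was among the 5 of highest mean share at both promoters. For Pole they lay on chromosomes 7 and 4. They were chromosome 7 from 133 to 134 Mb (79.1 ± 75.9 per 10000 at Pole and 31.1 ± 4.64 at Cdca3, SD, n = 4), its neighbour from 134 to 135 Mb (70.2 against 32.4), chromosome 7 from 117 to 118 Mb (70.6 against 29.0), and chromosome 4 from 107 to 108 Mb (62.1 against 15.1) and 108 to 109 Mb. Pole replicate 1 carried these means: its shares in the 5 windows were 129 to 191 per 10000. Without it, an alternative chosen after seeing the data, 1 of the 5 stayed among the 5 highest, chromosome 4 from 108 to 109 Mb at 51.5 per 10000, followed by chromosome 1 from 181 to 182 Mb at 51.0. Chromosome 7 from 133 to 134 Mb was then at 41.6 and chromosome 4 from 107 to 108 Mb at 32.9. For Cdca3 the highest was chromosome 10 from 127 to 128 Mb, at 37.6 ± 14.4 per 10000 against 28.7 ± 22.3 at Pole. It was followed by chromosome 16 from 91 to 92 Mb (35.0 against 24.8), chromosome 12 from 112 to 113 Mb (34.7 against 36.5), chromosome 7 from 87 to 88 Mb (34.0 against 22.8) and chromosome 2 from 164 to 165 Mb (33.0 against 14.7). Without replicate 1, 3 of these 5 stayed among the 5 highest for Cdca3, and chromosome 7 from 133 to 134 Mb joined them at 29.0. All 5 top Cdca3 windows held Pole sites too, at a mean from 14.7 to 36.5 per 10000, but not in every Pole library. Pole replicate 1 had a site only in that of chromosome 7 from 87 to 88 Mb. Pole replicate 2 had none in that of chromosome 2 from 164 to 165 Mb.

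Without replicate 1 the same limma test called 60 of 833 windows (7.20%), 24 higher at Pole and 36 higher at Cdca3, with a smallest adjusted p of 0.000154. Leaving out replicate 2, 3 or 4 instead gave 0. The 36 windows higher at Cdca3 had no site in Pole replicates 2 to 4, and 33 of them had none in any Pole library. They met the filter of this fit through Cdca3 alone. Of the 24 higher at Pole, 23 had a site in all 3 remaining libraries of both promoters, and their median log2 difference was 0.97. In the pair left out, 14 of the 36 were higher at Cdca3 and 2 higher at Pole, and of the 24, 5 were higher at Pole and 15 higher at Cdca3. Of all 2001 windows, that pair listed 432 at Cdca3 and 175 at Pole, 89 of them at both. A higher Cdca3 share was thus the commoner order in that pair at large, and these counts are no separate check of the calls. The Pole library of replicate 1 had a site in 6 of the 24.

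Profiles over the 884 windows had higher correlations among Cdca3 libraries than among Pole libraries. These correlations are across windows, which are not replicates, and they share library length and the placing of restriction sites. Between replicates 2 to 4, Spearman's rho had a median of 0.356 (0.306 to 0.381) within Pole and 0.708 (0.657 to 0.73) within Cdca3. Pole with Cdca3 gave a median of 0.492 in the same culture and 0.462 in other cultures, both above the median among Pole libraries. Pole replicate 1 had values near 0 with the other 7 libraries (-0.008 to 0.081), and Cdca3 replicate 1 correlated with the other Cdca3 libraries at 0.381 to 0.425. Pole and Cdca3 libraries of 1 culture shared 147, 1424, 1562 and 795 sites on the 17 autosomes, which are 6.12%, 20.6%, 19.9% and 13.9% of the Pole lists and 1.60%, 5.30%, 6.25% and 4.39% of the Cdca3 lists. Sharing was not particular to a culture. With Cdca3 replicate 2, Pole replicates 1, 3 and 4 shared 13.6%, 20.9% and 21.2% of their lists, more than with their own culture. Pole replicate 2 shared most with its own. Pole replicates 2 to 4 shared 5.48% to 10.6% of their lists with each other. The Cdca3 lists are longer, so this range cannot be set against the percent of a Pole list found in a Cdca3 list.

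**Figure D5:**
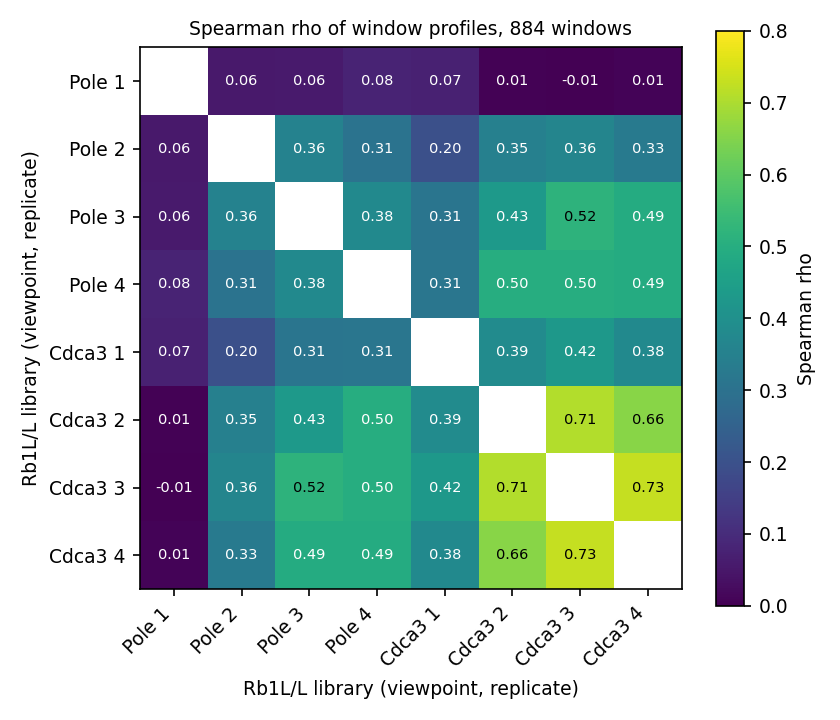
Spearman's rho of the share of sites over 884 windows of 1 Mb for each pair of the 8 Rb1L/L libraries, as a coloured grid. Cdca3 replicates 2 to 4 stand out at 0.657 to 0.73 with each other, and Pole replicate 1 is near 0 (-0.008 to 0.081) with all others.

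The same contrast was computed in the 8 Rb1+/+ libraries, and no difference of it between the genotypes passed its test. The cis share there was 55.6% ± 4.14 at Pole and 30.9% ± 2.31 at Cdca3 (SD, n = 4), without overlap. Its mean difference was 24.8 percentage points, against 24.7 in Rb1L/L. Pole minus Cdca3 averaged -12981 listed sites and -11.9 percentage points of trans windows with a site in Rb1+/+. For the difference between genotypes these had exact permutation p values of 0.343 and 0.486. The difference in slope was 0.0723 in Rb1+/+ and that in median trans position 0.0283. Between genotypes these differed at exact permutation p values of 0.971 and 0.714. In Rb1+/+, limma called 0 of 816 windows (0%), with 104 (12.7%) at an unadjusted p under 0.05, 11 (1.35%) higher at Pole and 93 (11.4%) higher at Cdca3. Of the 95 windows higher at Cdca3 at an unadjusted p under 0.05 in Rb1L/L, 92 were tested in Rb1+/+ and 83 (90.2%) had the same direction there, against 74.3% of all 720 windows tested in both. Of the 9 higher at Pole, 5 (55.6%) did, against 25.4% of all 720. Pole sites covered fewer windows in Rb1+/+ too, 18.6% against 30.4% on average. With 0.5 sites added to every window, the Rb1+/+ split at an unadjusted limma p under 0.05 was 52 higher at Pole to 53 higher at Cdca3. The direction of windows picked as poor in Pole sites is therefore no independent repeat. The viewpoint by genotype interaction passed in 0 of 884 windows (0%) by limma, with 42 (4.75%) at an unadjusted p under 0.05 (23, or 2.60%, with a higher Pole difference in Rb1L/L and 19, or 2.15%, with a lower one) and 1 called with voom weights. Chromosome 8 from 12 to 13 Mb was the named window with the largest interaction: the log2 difference was 3.17 in Rb1L/L and -3.13 in Rb1+/+ (limma adjusted p = 0.589 for the interaction). The rise of chromosome 7 at Pole was 0.24 on the log2 scale in Rb1+/+ (limma adjusted p = 0.251), and its interaction of 0.27 did not pass (adjusted p = 0.449). Of the 17 chromosomes, 1 (5.88%) passed in Rb1+/+ and 5 (29.4%) had an unadjusted p under 0.05. Chromosome 11 was lower at Pole in Rb1+/+ (5.66% ± 1.09 against 8.85% ± 0.2, limma adjusted p = 0.0026), while in Rb1L/L its shares were 6.28% ± 1.5 and 7.16% ± 1.37 (adjusted p = 0.402), and this difference between genotypes did not pass either (adjusted p = 0.449).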

How the data were processed

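Sites were read from the first 3 columns of each library's deposited list, whose coordinates are in mm9, per the submitters' processing notes. The authors deposited a p-value or q-value per site without a header, all under 0.05, and which of the 2 it is could not be settled; it served only as a filter in an alternative. For the aligner and the caller, a name is not given in the sources used here. Lists of significant regions, also deposited, were not used here. A list cut at a p-value grows with depth, which is unknown, so values were taken as shares of each list.

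Tables and exact tests (16 sign flips, 70 splits, two-sided) were made in Python 3.11.15 with pandas 2.3.3, numpy 2.4.6 and scipy 1.17.1. Windows and chromosomes were fitted in R 4.3.3 with limma 3.58.1 and Benjamini-Hochberg adjustment. Windows needed a mean of at least 1 site per 10000, and 1 was added before log2. The fitting step was run on simulated site numbers drawn around each window's mean. Windows listed at 1 promoter alone were not simulated as such, so that run does not cover them.

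Pairs came from the labels: both libraries of a number have the same MEF pair identifier and genotype. Deviations of same-numbered libraries correlated at 0.122, 0.036, 0.071 and 0.023 over 884 windows. Those of different numbers correlated at -0.097 to 0.082. For Pole replicates 2 and 4 a Cdca3 library of another number gave a higher value than the matched one (0.061 and 0.082), and for replicates 1 and 3 none did. These values do not settle the pairing, and the pair was kept as a block because of its source. The median position and its scale used the first and last listed site of a chromosome over all 16 libraries. Named windows were the 5 of smallest p in each direction, since none passed, and the 5 of highest mean share at each promoter. Genes were not assigned to windows. Members, windows and tests were chosen with earlier results of these data known. The distance ranges compared one by one and the thinning of lists were added after seeing the data.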

Additional observations from a re-analysis of the deposited data

Results flagged for a closer look

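In groups of 4 libraries, the highest or lowest library was marked where its gap to the next exceeded Dixon's critical share of the group's range. This marked 7 of 30 groups in the Rb1L/L libraries. Chance marks about 5% of independent groups that were not selected. The groups here share the same libraries and include windows and chromosomes named for their small p, so the 7 cannot be set against that share. The share of trans windows with a site was 21.6% in Cdca3 replicate 1, below the other 3 Cdca3 libraries. The share of sites on chromosome 7 was 9.57% in Cdca3 replicate 1, above the other 3. In sites per 10000, Cdca3 replicate 1 stood above the other Cdca3 libraries at 50.2 in the window of chromosome 10 from 60 to 61 Mb and at 36.0 in that of chromosome 11 from 59 to 60 Mb. It stood below them at 0 in that of chromosome 4 from 108 to 109 Mb. Pole replicate 1 stood above the other Pole libraries at 117 on chromosome 2 from 127 to 128 Mb. Cdca3 replicate 2 stood above the rest at 24.6 on chromosome 14 from 99 to 100 Mb. Replicate 1, the shortest list at both promoters, accounts for 6 of the 7, and its part in these values was not tested.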

How the results depend on the processing

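With no replicate block, the exact test called the cis share (24.7 percentage points) and the median trans position (0.0346), both at p = 0.0286, which the paired test cannot reach; the block ended no window call, and without it 0 windows and 0 chromosomes were called. The share within 10 Mb reversed within 5 Mb (-2.66) and with the viewpoint at the start (-0.782) or end (-2.03) of its stretch. The slope reversed over 6 to 48 Mb (-0.0291) and at the stretch end (-0.233). Of the density differences, 3 to 6 Mb reversed at the stretch end (0.291), 12 to 24 Mb at the start (-0.0367), and 3 to 6 Mb on the centromeric side at the start (0.131) and end (0.901). The count of windows called ranged from 0 to 60 leaving out a replicate, and was 12 with voom weights and 1 with a site required in every library. In Rb1+/+ it ranged from 0 to 1 leaving out a replicate, and was 13 for deposited values under 0.01, 22 for a mean of at least 3 per 10000, 1 with a site in every library and 1 with voom weights. The interaction gave 1 with voom weights. The chromosome count fell to 0 for deposited values under 0.01, where the chromosome 7 difference was larger (0.86 on the log2 scale), and in each fit leaving out a replicate (0 to 0). The cause of these changes was not tested. The other 68 single-value comparisons with an alternative kept their direction. The paired test cannot call a single value at any setting, so an unchanged call there carries no information. The other 33 count comparisons stayed at 0 windows. The other 106 named-window comparisons kept their direction and stayed without a call. 14 named-window comparisons gained a call, and the chromosome 7 call was lost in all 6 alternatives, with its direction kept. With 4 libraries a promoter and no read counts, neither depth nor ligation yield could be separated from site number.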

Other observations

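Some windows without Pole sites adjoined each other. Windows were counted that had a site in at least 3 of the 4 Cdca3 Rb1L/L libraries and in no Pole Rb1L/L library. This rule, chosen after the values were seen, gave 67 of the 2001 windows, and the opposite rule gave 1. A Cdca3 library had a site in 21.6% to 37.4% of all windows and a Pole library in 8.75% to 25.6%, so the 2 counts are not alike in coverage. The 67 included 4 runs of 3 or more adjoining windows, and the opposite rule gave 0 runs. The longest was chromosome 13 from 43 to 47 Mb, with 20 to 154 sites in a Cdca3 library, the fewest in replicate 1. In Rb1+/+ cells that stretch held 33, 54, 66 and 105 Cdca3 sites and 0, 0, 0 and 16 Pole sites. On chromosome 4 from 44 to 47 Mb the Cdca3 libraries had 0, 91, 101 and 53 sites, and the Rb1+/+ Pole libraries had 0 as well. On chromosome 1 from 93 to 96 Mb they had 37, 146, 77 and 55, and there the Rb1+/+ Pole libraries did list sites, 20, 45, 18 and 2. The fourth run was chromosome 19 from 36 to 39 Mb, with 68, 94, 82 and 32. In Rb1+/+ cells it held 0, 0, 50 and 44 Cdca3 sites and 0, 0, 12 and 0 Pole sites. The Cdca3 lists were longer throughout, and the part of list length in these runs was not tested.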
